A study of Homo sapiens with 15 samples.

Results

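The 9 genes described here encode kinases of the JNK and p38 stress cascade: MAP3K1, MAP3K5, MAP3K8, MAP3K13, MAP2K4, MAP2K6, MAPK8, MAPK9 and MAPK12. They were chosen by symbol from the 730 endogenous genes of a NanoString nCounter PanCancer Pathways panel, and all 9 were found, each with 1 probe. The panel was run on HCT116 cells, a human colorectal cancer cell line, in 5 groups of 3 samples collected after 24 h. Control cells were left untreated, TQ cells received 40 µM thymoquinone and 5-FU cells received 15 µM 5-fluorouracil. Combi cells received 35 µM TQ together with 35 µM 5-FU. SARB cells received 35 µM of a hybrid in which derivatives of TQ and 5-FU are joined by an ester. The single doses therefore differed from the doses in Combi, and only Combi and SARB were given at the same nominal concentration. No vehicle is stated for the control samples. Nothing in the labels says that the 3 samples of a group came from separate cultures, so the p-values measure the spread between these samples, which may be technical.

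In this cascade a MAP kinase kinase kinase (MAP3K) phosphorylates a MAP kinase kinase (MAP2K), which in turn phosphorylates a MAP kinase. The JNK kinases act on the transcription factor c-Jun and the p38 kinases on further kinases and transcription factors, in response to cytokines, osmotic stress, oxidants and DNA damage. Much of this control lies in phosphorylation, which a transcript count does not measure.

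Total counts of the endogenous genes ranged from 135017 to 607782 per sample. Levels are given as scaled counts, that is, raw counts brought to an equal geometric mean of 40 housekeeping genes. Calls rest on edgeR's quasi-likelihood test and need both an adjusted p (Benjamini-Hochberg, 730 genes) no greater than 0.05 and a change of 1.5-fold or more. There were 3 cartridges: the first held every TQ, 5-FU and SARB sample with control replicate 1, the second held the other control samples with Combi replicate 1, and the last held the remaining Combi samples. With cartridge as a block, TQ, 5-FU and SARB are therefore set against control replicate 1 alone. Combi then rests on Combi replicate 1 alone, so a call lost under the block is lost with little replication. Over the whole panel of 730 genes the median log2 fold change was below 0: TQ had -0.47, 5-FU -0.27, Combi -0.10 and SARB -0.41 relative to untreated cells. TMM normalization brings that median close to 0, to between -0.07 and -0.02, and moves the panel's split of calls from 25 higher and 158 lower to 79 and 44 for TQ, from 74 and 74 to 104 and 41 for 5-FU, and from 63 and 146 to 120 and 68 for SARB. Fold changes below use the housekeeping scaling, except where TMM is stated. Of 9 epithelial marker genes, 8 were above the negative probes in every control sample and 9 in every treated sample, and 4 of 5 fibroblast markers were above them in no sample. Of 6 blood cell markers, 1 or 2 were above them in every sample of a group, and in TQ each of the 6 was above them in at least 1 sample. The part of other cell types in the results was not tested.

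Of the 9 kinase genes, 2 were called in any comparison with control, MAPK9 and MAP2K6, both lower in SARB. MAPK9, which encodes JNK2, fell 1.72-fold in SARB, while MAPK8, which encodes JNK1, did not pass the test in any comparison. MAP2K6 was not above the negative probes in any of the 15 samples. In SARB, 28.6% of all 730 genes were called, 146 of them lower, so 2 of 9 is near the background. No kinase gene was called in TQ, where 25.1% of all genes were called, in 5-FU, where 20.3% were, or in Combi, where 20.1% were. The 9 genes had a median log2 fold change of -0.38 under TQ, -0.019 under 5-FU, -0.28 under Combi and -0.24 under SARB.

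MAPK8 and MAPK9 code for related kinases, and their count ratio is given below. MAP3K13 came nearest, among the 9 genes, to being called higher. The sequences just upstream of these 3 genes are shown as a description, and no fold change, call or ratio here rests on them. Each is the 250 bases before the outermost gene start in RefSeq on GRCh38.p14, written 5′ to 3′ on the gene's strand. Capitals mark TGACGTCA, the CRE-type site of the ATF and c-Jun family. MAPK8 lies at chr10:48306427-48306676 on the plus strand, MAPK9 at chr5:180292084-180292333 on the minus strand and MAP3K13 at chr3:185282711-185282960 on the plus strand.
MAPK8: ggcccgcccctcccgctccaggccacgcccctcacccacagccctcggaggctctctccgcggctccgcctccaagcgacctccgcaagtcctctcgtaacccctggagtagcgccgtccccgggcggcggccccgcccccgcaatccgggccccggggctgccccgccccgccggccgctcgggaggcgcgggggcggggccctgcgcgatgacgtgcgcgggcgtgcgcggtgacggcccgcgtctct
MAPK9: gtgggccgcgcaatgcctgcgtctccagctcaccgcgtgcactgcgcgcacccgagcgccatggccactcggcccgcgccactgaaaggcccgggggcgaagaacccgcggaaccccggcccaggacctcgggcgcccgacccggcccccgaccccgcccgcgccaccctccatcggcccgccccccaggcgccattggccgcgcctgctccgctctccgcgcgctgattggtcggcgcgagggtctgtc
MAP3K13: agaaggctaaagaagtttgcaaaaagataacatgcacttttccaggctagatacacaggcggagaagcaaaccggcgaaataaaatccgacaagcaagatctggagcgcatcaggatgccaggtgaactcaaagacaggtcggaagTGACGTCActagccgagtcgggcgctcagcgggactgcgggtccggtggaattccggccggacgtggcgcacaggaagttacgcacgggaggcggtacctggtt

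A window of this kind was found for 8 of the 9 genes, all but MAP3K1. TGACGTCA, which reads the same on both strands, was found in MAP3K13 alone of these 8, starting 104 bases before the gene start, and in 1.75% of 27305 RefSeq windows of the same length. TGANTCA, the AP-1 type site, was found in 0 of 8 windows and in 6.57% of all windows. The GC box GGGCGG, searched on both strands, was found in 7 of 8 windows, all but MAP3K13, and in 42.2% of all windows. It occurred 5 times upstream of MAPK8 and 2 times upstream of MAPK9, whose windows held 80.4% and 77.6% G and C against a median of 57.6%. These are matches of letters and do not show that a factor binds there.

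At the top of the cascade, MAP3K1 (NM_005921.1) encodes MEKK1, which acts upstream of JNK. Its scaled counts were 198.9, 264.6 and 265.6 in control, 205.6, 167.7 and 138.1 in TQ, and 188, 182.3 and 230.7 in 5-FU. They were 196.5, 167.6 and 165.9 in Combi and 162, 207.6 and 169.8 in SARB. Control replicate 1, on the first cartridge, lay below the other control samples, and the 3 Combi samples lay below all 3 controls, as in 16.7% of all 730 genes, while the other groups overlapped control. The log2 fold change was -0.53 (SE 0.17) in TQ, -0.47 (SE 0.16) in Combi and -0.45 (SE 0.16) in SARB, with edgeR adjusted p of 0.0218, 0.032 and 0.0351, all short of the fold minimum. An adjusted p of at most 0.05 at any fold was found for 39.3% of all genes in SARB. In 5-FU it was -0.28 (adjusted p = 0.217 in edgeR). Without control replicate 1, MAP3K1 was called lower in TQ, at -0.65, and in Combi, at -0.59, and without TQ replicate 1 it was called lower in TQ, also at -0.65. Control replicate 1 was the only control on the cartridge of the TQ samples, so without it no cartridge held both groups. With 1 sample left out, the TQ value of MAP3K1 ranged from -0.65 to -0.41. With cartridge as a block its 5-FU value was 0.009.

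MAP3K13 (NM_004721.3) encodes LZK, a leucine zipper kinase that can start JNK signaling. Its scaled counts were 50.16, 49.89 and 38.66 in control, 88.13, 61.66 and 47.75 in TQ, and 90.36, 66.52 and 69.49 in 5-FU. They were 47.72, 62.18 and 67.08 in Combi and 66.52, 78.2 and 49.21 in SARB. All 3 5-FU samples lay above the 3 controls, as in 16.3% of all 730 genes, while TQ, Combi and SARB overlapped control. The log2 fold change in 5-FU was 0.71 (SE 0.26, 1.63-fold), with an edgeR adjusted p of 0.05004, just past the threshold, so the gene was not called. For TQ it was 0.47, for Combi 0.37 and for SARB 0.45, with adjusted p of 0.169, 0.35 and 0.174 in edgeR. After TMM normalization MAP3K13 was called higher in 5-FU, at 0.90, in TQ, at 0.94, and in SARB, at 0.79, whereas with cartridge as a block the 5-FU value was 0.59 (adjusted p = 0.392 in edgeR). Raw counts in control were 23 to 33, and 2 of 3 control samples were above the negative probes.

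MAP3K5 (NM_005923.3) encodes ASK1, which is activated by oxidants and passes the signal to both JNK and p38. Its scaled counts ranged from 60.6 to 136.1 over the 15 samples, with control replicate 3 the highest. Every treated group overlapped control, and the log2 fold change lay between -0.41 in Combi and 0.01 in 5-FU, with no call. MAP3K8 (NM_005204.2) encodes TPL2, which acts mainly on the ERK branch and can also feed JNK and p38. Its scaled counts ranged from 10.33 to 50.04, with 1 of 3 control samples above the negative probes. The log2 fold change lay between -0.58 in TQ and 0.34 in Combi, with no call.

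MAP2K4 (NM_003010.2) encodes MKK4, which phosphorylates JNK and, in some settings, p38. Its scaled counts were 581.1, 483.8 and 467.2 in control, 441.9, 394.2 and 426.4 in Combi, and 563, 481.3 and 587.1 in SARB. All Combi samples lay below all control samples, as in 16.7% of all genes, and below all SARB samples. SARB overlapped control. TQ, at 489.4 to 497.6, and 5-FU, at 534.8 to 558.7, also overlapped control. The log2 fold change against control was -0.28 in Combi (SE 0.12, adjusted p = 0.0813 in edgeR), and lay between -0.05 and 0.10 in the other treatments.

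MAP2K6 (NM_002758.3) encodes MKK6, a kinase of p38. Control samples had raw counts of 6, 9 and 8, TQ samples 2, 8 and 1, 5-FU samples 4, 6 and 7, Combi samples 12, 13 and 5, and SARB samples 3, 5 and 5. After scaling, the TQ, 5-FU and SARB samples lay below all controls, as in 39.5%, 27.8% and 28.9% of all genes, and Combi overlapped them. The call in SARB had a log2 fold change of -1.75 (SE 0.61, adjusted p = 0.028 in edgeR). The mean of the 8 negative probes, scaled in the same way, was also lower than in control, with log2 differences of -1.45 for TQ, -0.65 for 5-FU, -0.67 for Combi and -0.93 for SARB. The part of these probes in the MAP2K6 value was not tested. With counts under 20 set to 20 the SARB value was -0.87, and the call was lost there, after TMM normalization, at -1.41 (adjusted p = 0.0543 in edgeR), and with cartridge as a block, at -1.48 (adjusted p = 0.277). Leaving out control replicate 2 (-1.68), the third control (-1.69), SARB replicate 1 (-1.61) or SARB replicate 3 (-1.42) also ended the call.

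Among the MAP kinases, MAPK9 (NM_139068.2), the gene of JNK2, had scaled counts of 472.2, 556.3 and 608.4 in control, 379.5, 445.8 and 428.1 in TQ, and 413.9, 429.7 and 385 in 5-FU. They were 472.6, 364.1 and 382.7 in Combi and 358.6, 315.5 and 283 in SARB. The SARB samples were the 3 lowest of the 15, a pattern whose share over all genes is not given here. TQ and 5-FU also lay below all controls. SARB, TQ and 5-FU lay below all controls in 28.9%, 39.5% and 27.8% of all 730 genes. Combi replicate 1, at 472.6, lay just above control replicate 1, at 472.2. It lay below control replicates 2 and 3, with which it shared a cartridge. The log2 fold change was -0.78 in SARB (SE 0.14, 95% interval -1.06 to -0.50, adjusted p = 0.000116 in edgeR). The TQ value was -0.38, the 5-FU value -0.41 and the Combi value -0.43, with edgeR adjusted p of 0.0383, 0.0265 and 0.0173, all short of the fold minimum. An adjusted p of at most 0.05 at any fold was found for 34.5% of all genes under TQ, 27.8% under 5-FU and 28.6% under Combi. In the SARB comparison, MAPK9 stayed called with each of 6 samples left out in turn, at -0.87 to -0.69, but after TMM normalization it was -0.42 (adjusted p = 0.0373 in edgeR) and with cartridge as a block -0.57 (adjusted p = 0.0142), both under the fold minimum. In DESeq2 it was -0.41, with an adjusted p of 0.0656. After TMM normalization the TQ value was 0.10.

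MAPK8 (NM_002750.2), the gene of JNK1, had scaled counts of 555.2, 565.4 and 610.1 in control and 610.3, 563.6 and 518.2 in SARB. The other samples ranged from 516.2 to 614.3. Of the treated groups only Combi did not overlap control, and it lay below, as in 16.7% of all genes. The log2 fold change was -0.07 in TQ (95% interval -0.30 to 0.16), -0.02 in 5-FU (-0.25 to 0.21), -0.11 in Combi (-0.34 to 0.12) and -0.03 in SARB (-0.26 to 0.20). These intervals lie within the fold minimum in either direction, but after TMM normalization the TQ value was 0.39 and the SARB value 0.31. MAPK12 (NM_002969.3) encodes p38 gamma. Its scaled counts were 155.7, 143.6 and 161.3 in control and 120, 113.5 and 121.1 in TQ, and ranged from 113.1 to 200.9 in the other groups. The TQ samples lay below all controls, as in 39.5% of all 730 genes. Their log2 fold change was -0.38 (SE 0.18, adjusted p = 0.0969 in edgeR), which became 0.09 after TMM normalization.

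**Figure D1:**
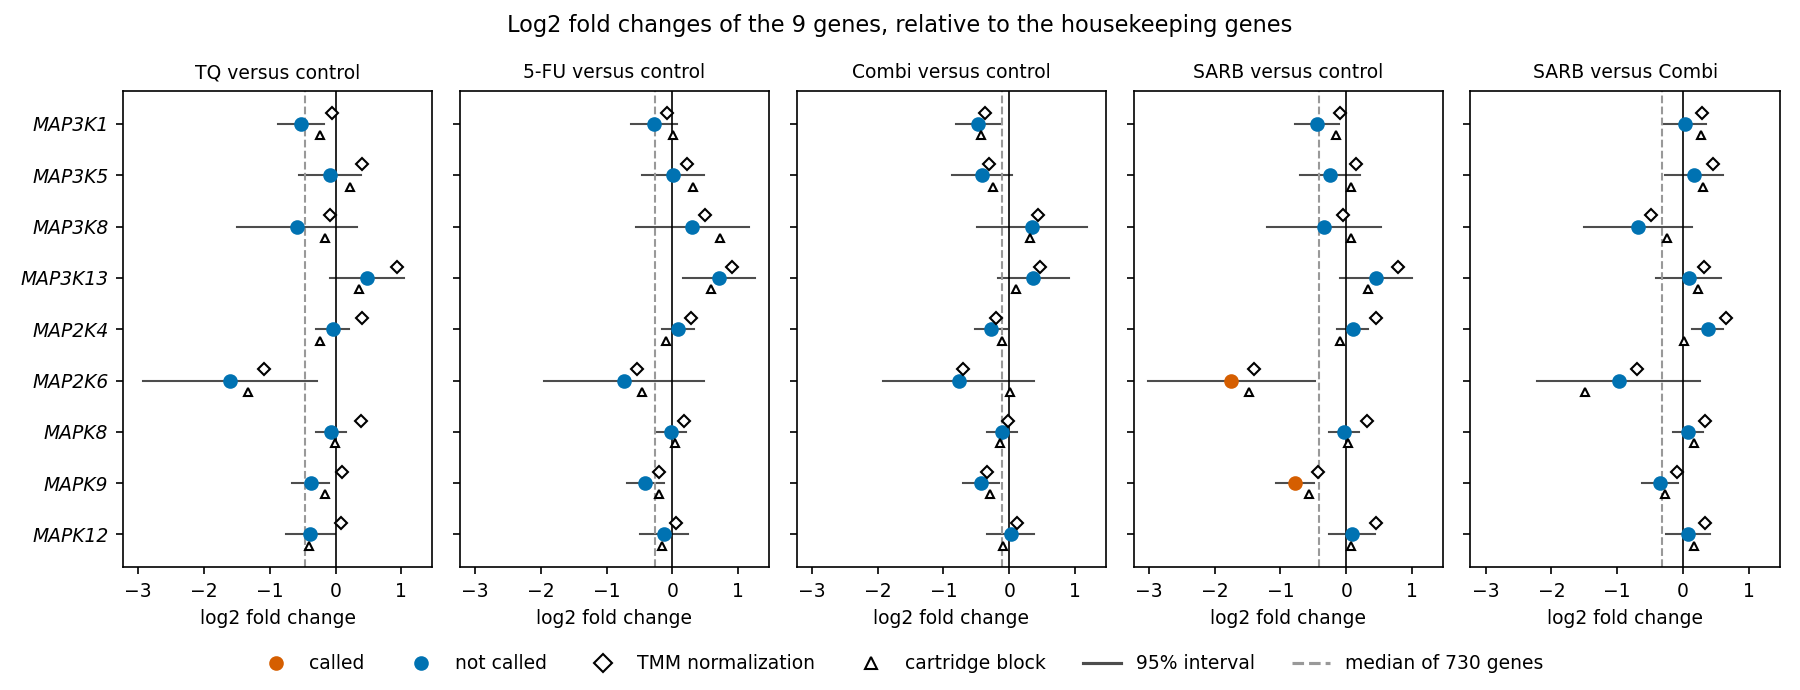
Log2 fold changes of the 9 kinase genes in each comparison, with the 95% interval as a bar, the values after TMM normalization as diamonds, those with cartridge as a block as triangles, and the median of all 730 genes as a dashed line. MAPK9 and MAP2K6 in SARB versus control are the only orange points, which mark calls, and the TMM values lie to the right of the housekeeping values.

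The ratio of MAPK9 to MAPK8 raw counts within a sample does not depend on the scaling. It was chosen after the values were seen, and because the 2 probes can differ in efficiency only its change between groups is read. Control samples had ratios of 0.85, 0.984 and 0.997, TQ samples 0.671, 0.847 and 0.763, and 5-FU samples 0.717, 0.832 and 0.627. Combi samples had 0.887, 0.662 and 0.74, and SARB samples 0.588, 0.56 and 0.546. All 3 SARB samples lay below the other 12 samples, and only Combi overlapped control. How often other pairs of genes separate in this way was not tested. The mean was 0.944 ± 0.081 (SD, n = 3) in control and 0.565 ± 0.021 (SD, n = 3) in SARB, a log2 difference of -0.74. Against control replicate 1, which ran on the same cartridge, all SARB values were also lower. The exact two-sided permutation test gave p = 0.1 for TQ, 5-FU and SARB against control and for SARB against Combi, the smallest p that 3 against 3 samples allow, and 0.2 for Combi against control. Adjusted over the 5 comparisons the exact test gave 0.125 and, for Combi, 0.2.

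Combi gave TQ and 5-FU as separate drugs, while SARB joined derivatives of the 2 by an ester. SARB and Combi are the only pair of treatments given at the same nominal 35 µM for the same time. No kinase gene was called between them, against 12.2% of all genes called, and no cartridge held both. Over the panel, 7 genes were higher and 82 lower in SARB, or 39 and 54 after TMM normalization. MAP2K4 was 0.38 higher in SARB on the log2 scale (SE 0.11, 95% interval 0.14 to 0.61, adjusted p = 0.0274 in edgeR), under the fold minimum. An adjusted p of at most 0.05 at any fold was found for 18.2% of all genes. The 3 SARB samples lay above the 3 Combi samples, as in 4.93% of all genes. MAP2K4 was called higher after TMM normalization, at 0.65. With cartridge as a block the MAP2K4 value in SARB against control was -0.090. Control replicate 1, the control sample on the SARB cartridge, was the highest control, at 581.1. MAPK9 was lower in each SARB sample than in every Combi sample, as in 28.9% of all genes, at -0.35 (95% interval -0.63 to -0.07, adjusted p = 0.0723 in edgeR), and -0.09 after TMM normalization. For MAPK8 the interval of the difference was -0.15 to 0.30, for MAP3K1 -0.31 to 0.35 and for MAPK12 -0.26 to 0.41, on the housekeeping scaling. TMM normalization moved the panel median of this comparison from -0.32 to -0.063, and the intervals were not recomputed there. For MAP3K8 the interval, -1.50 to 0.13, was wider.

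Of 61 further genes of the JNK and p38 pathway that were listed, 23 were on the panel. With TQ, 4 of them were higher and 2 lower, against 3.42% and 21.6% of all 730 genes. With 5-FU, 8 were higher and 1 lower, against 10.1% each way. With Combi, 6 were higher and 1 lower, against 13.6% and 6.58%. With SARB, 6 were higher, against 8.63%, and 4 lower, against 146 of the 730 genes. After TMM normalization both lower calls in TQ, RAC1 and STMN1, were lost, and 3 of the 4 in SARB, RAC1, STMN1 and DDIT3. Between SARB and Combi 1 of the 23 was called. The 23 genes had a median log2 fold change of -0.044 under TQ, 0.34 under 5-FU, 0.34 under Combi and -0.017 under SARB, against the panel medians given above. Because the list was chosen with earlier results of these data known, these counts and medians describe it and cannot show enrichment.

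JUN encodes c-Jun, the transcription factor for which JNK is named. Untreated cells had 52.4 ± 9.38 scaled counts (SD, n = 3), and JUN rose to 121 ± 22.3 with 5-FU, 177 ± 18.2 with Combi and 132 ± 35.5 with SARB. The log2 fold changes were 1.19, 1.75 and 1.30, with edgeR adjusted p of 0.000255, 1.07e-06 and 6.12e-05, and in TQ, where it was not called, 0.21. DUSP8, a phosphatase that removes the activating phosphates from JNK and p38, rose by 1.14 in 5-FU, 0.91 in Combi and 0.78 in SARB on the log2 scale. Its raw counts in control were 19 to 21, with 1 of 3 samples above the negative probes, so the size of these changes is uncertain. With cartridge as a block the Combi and SARB calls of DUSP8 were lost, at 0.48 and 0.66. The Combi call was also lost without Combi replicate 2, at 0.69, and the SARB call without control replicate 2 or 3, at 0.75 each.

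GADD45 proteins respond to stress and bind MAP3K4. GADD45A, a p53 target, stood at 634 ± 19.2 scaled counts (SD, n = 3) without treatment, 1321 ± 165 with 5-FU, 1616 ± 85.5 with Combi and 1075 ± 187 with SARB. It was called higher in these 3 treatments, at log2 fold changes of 1.06, 1.35 and 0.77. In TQ, GADD45A stood at 921 ± 105 scaled counts (SD, n = 3), a log2 fold change of 0.54 (adjusted p = 0.00558 in edgeR), under the fold minimum. An adjusted p of at most 0.05 at any fold was found for 34.5% of all genes in TQ. GADD45B rose from 162 ± 41.4 to 674 ± 94.8 scaled counts (SD, n = 3) in TQ, a log2 fold change of 2.05 (adjusted p = 1.38e-08 in edgeR). In 5-FU it was called at 0.61, which was 0.23 and not called with cartridge as a block, and 0.49, 0.53 and 0.53 without a call when control replicate 2, control replicate 3 or 5-FU replicate 3 was left out. GADD45G was called lower in SARB, at -2.32 against control and -2.42 against Combi, but its raw counts were 3 to 16 in control and 1 to 5 in SARB, with 0 of 3 samples of either group above the negative probes. With counts under 20 set to 20 both calls were lost, at -0.87 and -0.067, and the first also without control replicate 2, at -1.82. With cartridge as a block both were lost too, at -0.76 and -0.39.

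Among the other kinases, MAP3K12, which encodes the DLK kinase upstream of JNK, rose from 102 ± 28.5 scaled counts (SD, n = 3) to 233 ± 27.9 in 5-FU and 198 ± 20.8 in Combi. Its log2 fold changes were 1.20 and 0.95, and 0.55 in SARB without a call. MAP3K14, which encodes the NF-kappa-B inducing kinase, was called higher in TQ at 1.08. RAC2, a small GTPase, was called higher under 5-FU at 1.28, under Combi at 1.06 and under SARB at 1.10. RAC1 was called lower at -0.69 in TQ and -0.60 in SARB, and both calls were lost after TMM normalization, at -0.23 and -0.26. Both were also lost with cartridge as a block, at -0.55 in TQ and -0.46 in SARB. The SARB call of RAC1 was also lost on leaving out control replicate 2, at -0.57, the third control, at -0.56, or SARB replicate 3, at -0.52.

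FLNC, an actin crosslinker of the filamin family, was called higher at 0.92 in 5-FU, 1.64 in Combi and 1.08 in SARB. MAPK8IP2, a JNK scaffold, was called higher at 0.72 in TQ, 1.10 in 5-FU and 0.97 in SARB, and all 3 calls were lost with cartridge as a block, at 0.39, 0.77 and 0.63. Its raw counts in control were 17 to 24, with 1 of 3 samples above the negative probes, so the size of these values is uncertain. The TQ call of MAPK8IP2 was lost on leaving out any of the 6 samples except control replicate 1, at 0.57 to 0.83. DDIT3 encodes CHOP, a factor of the endoplasmic reticulum stress response that p38 phosphorylates. It was called higher in TQ, at 0.80, and lower in 5-FU, at -0.97, and SARB, at -0.62. The TQ call was lost with cartridge as a block, at 0.61, and the SARB call after TMM normalization, at -0.31, and on leaving out the first control, the second control or SARB replicate 3, at -0.53, -0.50 and -0.48. STMN1, a microtubule regulator phosphorylated by several kinases, fell by 0.84 in TQ, 0.98 in Combi and 0.84 in SARB on the log2 scale, and after TMM normalization the TQ and SARB calls were lost, at -0.39 and -0.51.

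**Figure D2:**
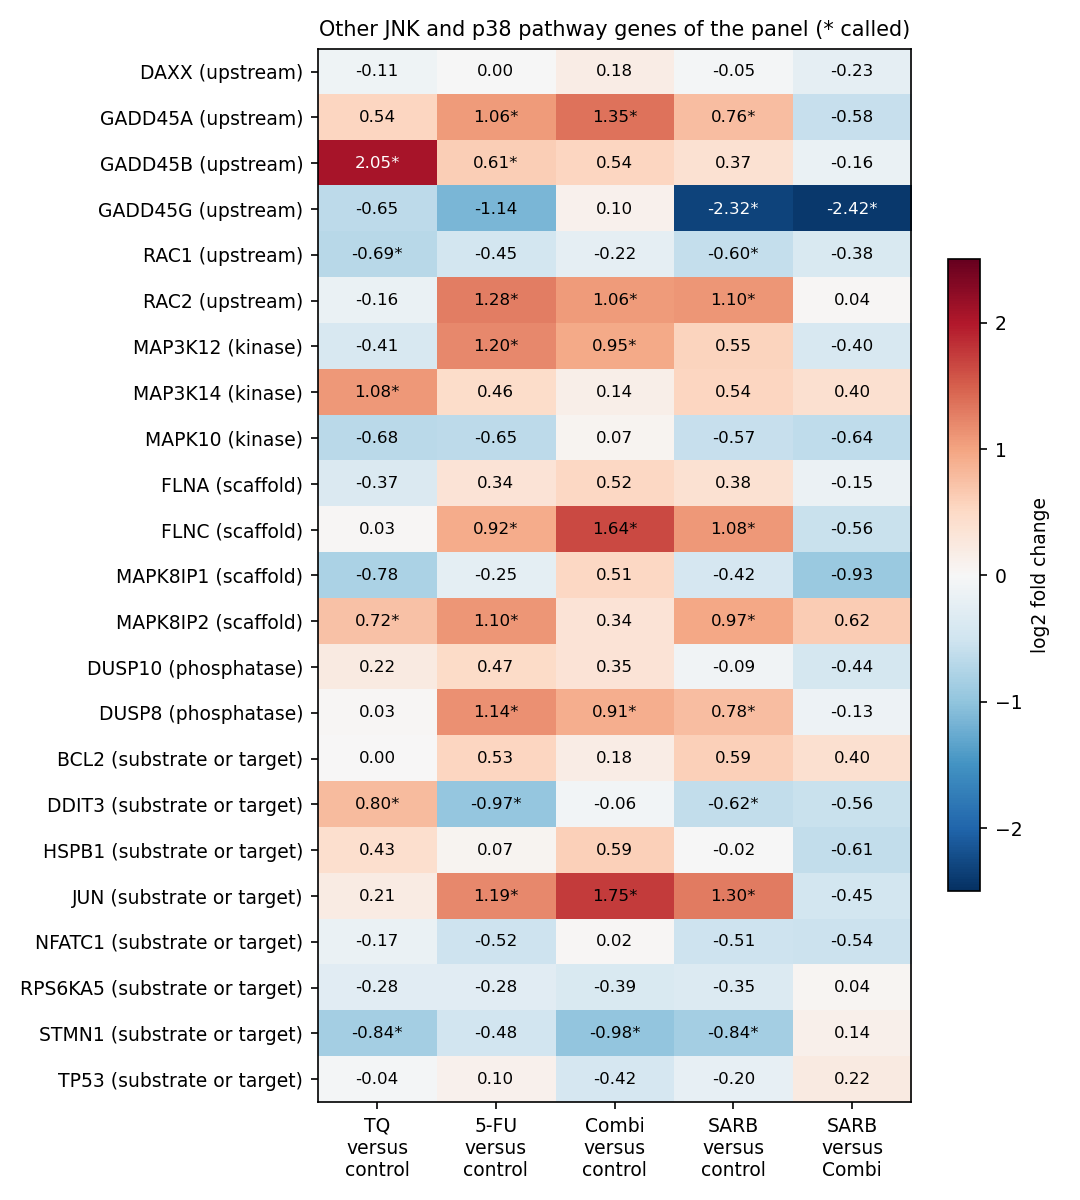
Log2 fold changes relative to the housekeeping genes for the 23 further pathway genes of the panel, grouped by role, with an asterisk on calls and color giving sign and size. GADD45B in TQ, at 2.05, and JUN in Combi, at 1.75, are the highest values, and GADD45G, which was near the negative probes, holds the lowest.

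The ERK cascade, the sister MAP kinase cascade driven mainly by growth factors, was set beside these genes through MAPK3. MAPK3, which encodes ERK1, was called lower in TQ, at -1.40, in 5-FU, at -0.71, and in SARB, at -1.12. Between SARB and Combi, MAPK3 was called lower at -1.10. All 4 of these calls were lost with cartridge as a block, where the values were -0.74, -0.052, -0.47 and -0.033. The 5-FU call was also lost without control replicate 2, at -0.62, or control replicate 3, at -0.52. Whether the cascades differ was not tested.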

How the data were processed

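RNA of 15 HCT116 samples (50 ng each) was hybridised to the panel and barcodes were counted without amplification. The authors deposited raw counts per probe, and normalized values, a signal that the authors made in nSolver 3.0 by housekeeping scaling, after a background subtraction that the values show. Their table of fold changes and p-values was not used. Here the counts were fitted with edgeR 4.0.16 in R 4.3.3 (quasi-likelihood test, 5 groups in 1 fit, library sizes from the geometric mean of 40 housekeeping genes, no filter). Scaled counts carry the arithmetic mean of the 15 housekeeping geometric means as their constant. That constant was set late, to put levels on the scale of an earlier analysis of these files. It multiplies every level alike and enters no test. A probe was above the negative probes where its raw count exceeded their mean plus 2 SD. All 9 members were named throughout, and further pathway genes where called in at least 1 comparison. The members and lists were chosen with earlier results of these data known. Alternatives were TMM, DESeq2 1.42.0, limma 3.58.1 on the normalized values, and those named in the closing section. Tests were tried on simulated data. Exact permutation tests used scipy 1.17.1. Counting error and 3 samples per group limit precision. Of the core kinases of the ERK cascade that were listed, not all results are reported here.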

Additional observations from a re-analysis of the deposited data

How the results depend on the processing

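The number of kinase genes called (2 in SARB versus control and 0 in the 4 other comparisons) moved with the processing. It was 1 each in TQ, 5-FU, SARB and SARB versus Combi after TMM normalization and likewise in DESeq2. In SARB both lower calls, MAPK9 and MAP2K6, were lost under each of these. The gene called in SARB after TMM normalization was MAP3K13, which was higher. The number of kinase genes called was 2 in TQ with the 20 highest housekeeping genes. It was 1 in 5-FU and 1 in SARB with the low-count filter (which removes MAP2K6), with counts under 20 set to 20 and in limma on the authors' normalized values. With only the groups compared it was 1 each in TQ, 5-FU and SARB. With no fold minimum, TQ had 2, 5-FU 1, Combi 2, SARB 3 and SARB versus Combi 1, and with the unadjusted p 1 in TQ and 1 in 5-FU. With cartridge as a block, control replicate 1 alone stands for control in TQ, 5-FU and SARB, and Combi replicate 1 alone for Combi. The SARB values of MAPK9 and MAP2K6 were then -0.57 and -1.48. With 1 sample left out the number of kinase genes called was 0 to 1 in TQ, 0 to 1 in Combi and 1 to 2 in SARB. Replicate numbers did not pair the samples: same-numbered deviations correlated at -0.31 to 0.21, -0.67 to 0.24 and -0.39 to 0.39 over 514 genes, and with the replicate block the counts were 0, 0, 0, 2 and 0, with MAPK9 in SARB at -0.78. Of 38 calls among the further pathway and ERK genes the block ended 1, MAPK8IP2 in TQ, at 0.73. The causes were not tested.

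Some of the 45 log2 fold changes of the kinase genes changed sign, none of them a call. After TMM normalization they were TQ (MAP3K5 0.41, MAP2K4 0.41, MAPK8 0.39, MAPK9 0.095, MAPK12 0.089), 5-FU (MAPK8 0.17, MAPK12 0.058), SARB (MAP3K5 0.15, MAPK8 0.31). By DESeq2 they were TQ (MAP3K5 0.44, MAP2K4 0.44, MAPK8 0.43, MAPK9 0.13, MAPK12 0.12), 5-FU (MAPK8 0.18, MAPK12 0.066), SARB (MAP3K5 0.16, MAPK8 0.33). With the 20 highest housekeeping genes they were 5-FU (MAP3K5 -0.066), SARB versus Combi (MAP3K1 -0.085, MAP3K13 -0.017, MAPK8 -0.027, MAPK12 -0.035). With counts under 20 set to 20 they were SARB versus Combi (MAP2K6 0.30). By limma on the normalized values they were TQ (MAP3K5 0.014, MAP2K6 0.063), Combi (MAPK12 -0.032), SARB (MAP3K8 0.008), SARB versus Combi (MAP2K6 0.08). With cartridge as a block they were TQ (MAP3K5 0.22), 5-FU (MAP3K1 0.009, MAP2K4 -0.097, MAPK8 0.036), Combi (MAP2K6 0.011, MAPK12 -0.10), SARB (MAP3K5 0.068, MAP3K8 0.072, MAP2K4 -0.090, MAPK8 0.020). With 1 sample left out, the ranges that crossed 0 were TQ (MAP2K4 -0.10 to 0.057, MAP3K5 -0.22 to 0.22), SARB versus Combi (MAP3K1 -0.080 to 0.098, MAP3K13 -0.070 to 0.27, MAPK12 -0.075 to 0.22), 5-FU (MAP3K5 -0.12 to 0.31, MAPK12 -0.29 to 0.001, MAPK8 -0.076 to 0.047), SARB (MAP3K5 -0.38 to 0.059, MAP3K8 -0.73 to 0.089, MAPK12 -0.055 to 0.24, MAPK8 -0.096 to 0.026), Combi (MAPK12 -0.028 to 0.072). No called pathway gene changed sign.

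Over all 730 genes, counts that moved by more than 1.5 times were as follows. In DESeq2, TQ had 85 higher and 37 lower, 5-FU 34 lower, SARB 116 higher and 60 lower, and SARB versus Combi 48 higher and 40 lower. TQ had 69 lower with counts under 20 set to 20 and 99 in limma. With no fold minimum 5-FU had 115 lower, Combi 92 lower and SARB versus Combi 20 higher, and with the unadjusted p the last had 130 lower. With cartridge as a block TQ had 13 higher and 26 lower, 5-FU 39 lower, Combi 61 higher, SARB 56 lower, and SARB versus Combi 0 higher and 1 lower. With 1 sample left out, the lower counts ranged from 62 to 185 in TQ, 91 to 243 in SARB and 40 to 148 in SARB versus Combi, and the higher count in SARB versus Combi from 6 to 12, the last without Combi replicate 1.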
